A study of Mus musculus with 34 samples.

Results

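The genes described here sense or act on bacteria: Cd14, Tlr4, Ly96 and Tlr2, which form or assist Toll-like receptors at the cell surface, Lbp, which carries lipopolysaccharide to them, and Lcn2 and Ptx3, which are secreted. They were found by symbol in the probe-to-gene table of the array, which gave 10 probes for the 7 genes among 45281 probes in all, 34885 of which had 1 symbol (19057 genes). Tlr4 had 3 probes, Ptx3 had 2 and each of the other genes had 1.

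Expression was measured on Illumina WG-6 version 2 arrays in mammary epithelial cells (MECs) of MMTVrtTA/H2BGFP mice, 4 weeks of age and of a CD1 strain backcrossed to FVB. The sorted groups were GFP+ CD24+/CD29+ cells (9 samples), GFP- CD24+/CD29+ cells (6 samples), GFP+ CD24+/CD29lo cells (9 samples) and GFP- CD24+/CD29lo cells (10 samples), the CD29+ gate being enriched for basal and the CD29lo gate for luminal cells. In all 4 groups the mouse mammary tumor virus promoter drives the reverse tetracycline transactivator, which with doxycycline induces a histone 2B-GFP fusion, so that GFP reports where that promoter had been active and not a cell type as such. The methods state that mice were kept on doxycycline and that CD45+, Ter119+ and CD31+ cells were gated out. The labels do not say which samples came from separate animals, and each p-value below rests on sample-to-sample spread, which may be technical.

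The Toll-like receptors recognise microbial molecules and signal through the adaptor MyD88 and IRAK kinases to NF-kappaB, a transcription factor that turns on cytokine and defence genes. For lipopolysaccharide, LBP hands the ligand to CD14, CD14 hands it to MD-2 (the product of Ly96), and MD-2 bound to TLR4 starts the signal, whereas TLR2 recognises bacterial lipoproteins. In the mammary gland these genes are known from the response to mastitis, and CD14 is also used as a surface marker of luminal progenitor cells.

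Promoter windows of 3 of the genes, Tlr2, Lcn2 and Ptx3, were found in a RefSeq-derived table (build GRCm38.p6) and are shown. The table held none for Cd14, Tlr4, Ly96 or Lbp. The secreted proteins and the receptor shown are known NF-kappaB or C/EBP targets. Between GFP+ and GFP- CD24+/CD29lo cells, below, Tlr2 passed the test and Lcn2 and Ptx3 did not. The part of NF-kappaB or C/EBP in any difference was not tested. Each run starts 250 bases before the transcription start and ends 20 bases into the transcript, at chr3:83841589-83841858 on the minus strand for Tlr2, chr2:32387720-32387989 on the minus strand for Lcn2 and chr3:66219637-66219906 on the plus strand for Ptx3. Capitals mark matches to the NF-kappaB consensus or to the C/EBP motif TTGCNNAA on either strand.
Tlr2: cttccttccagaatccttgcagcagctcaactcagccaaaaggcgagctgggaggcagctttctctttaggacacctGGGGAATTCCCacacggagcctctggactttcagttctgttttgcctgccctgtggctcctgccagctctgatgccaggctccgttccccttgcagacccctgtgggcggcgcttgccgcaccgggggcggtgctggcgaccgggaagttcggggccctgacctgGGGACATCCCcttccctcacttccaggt
Lcn2: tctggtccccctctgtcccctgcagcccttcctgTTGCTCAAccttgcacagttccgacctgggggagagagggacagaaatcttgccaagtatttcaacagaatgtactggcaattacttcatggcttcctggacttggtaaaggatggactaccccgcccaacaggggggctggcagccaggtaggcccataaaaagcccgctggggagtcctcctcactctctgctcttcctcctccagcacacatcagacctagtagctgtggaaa
Ptx3: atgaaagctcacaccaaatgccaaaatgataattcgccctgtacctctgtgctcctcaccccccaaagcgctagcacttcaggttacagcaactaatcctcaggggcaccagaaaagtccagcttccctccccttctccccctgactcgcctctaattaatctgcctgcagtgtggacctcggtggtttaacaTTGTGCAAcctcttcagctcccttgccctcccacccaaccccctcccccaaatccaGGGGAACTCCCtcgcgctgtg
The Tlr2 window held overlapping NF-kappaB matches at positions -173 to -163 and a further one at -8 to 2, where -1 is the base before the start and 1 the first transcribed base. The Ptx3 window held overlapping NF-kappaB matches at -1 to 10 and a C/EBP match at -57 to -50, and the Lcn2 window held a C/EBP match at -216 to -209. Of 32851 promoter windows of the same length, 7.69% held the NF-kappaB consensus, 10.1% held TTGCNNAA and 7.23% held the AP-1 motif TGANTCA, which none of the 3 windows held. A match describes these letters and is not evidence of a bound site.

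The arrays fell into 2 sets that differed in their overall signal, samples 1 to 12 and samples 13 to 34, and a median of 42.6% and 35.6% of probes was detected per array. All GFP- CD24+/CD29+ samples belonged to the second set. The lowest detected share, 26.3%, was that of sample 22, a GFP+ CD24+/CD29lo sample. Of 8 basal and myoepithelial markers, 8 were higher and 0 lower in CD24+/CD29+ than in CD24+/CD29lo cells among GFP+ samples (7 and 0 among GFP- samples), and of 7 luminal markers 6 were lower in each. Few markers of macrophages and monocytes were detected: between 0 and 3 of 9 on any array, Ptprc, Itgam and Fcer1g were detected on none, and the summed level of the list (normalized signal, not log) was 217 to 1402 in GFP+ CD24+/CD29+, 247 to 320 in GFP- CD24+/CD29+, 214 to 710 in GFP+ CD24+/CD29lo and 210 to 505 in GFP- CD24+/CD29lo samples. The highest sums were those of samples 32 (1402), 23 (710), 27 (505), 20 (435) and 15 (408), and their part in the results was not tested. Levels below are log2 values after the 34 arrays were normalized together, and the level of a probe cannot be set against that of another probe. A lower level in a sorted sample can come from fewer cells of a type or from less RNA per cell, which cannot be told apart.

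**Figure D1:**
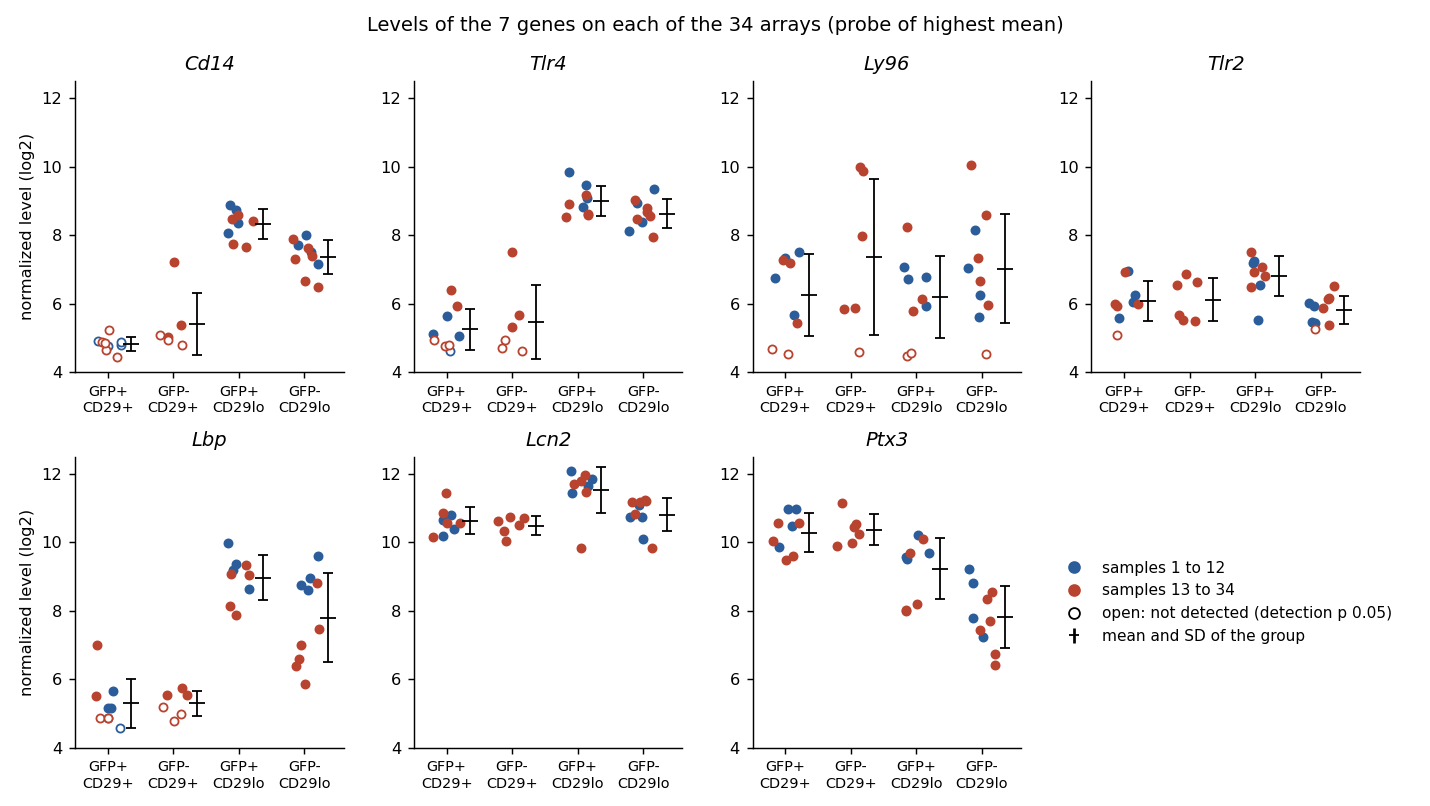
Normalized log2 level of each gene (probe of highest mean) on each of the 34 arrays, by sorted group, with samples 1 to 12 in blue and samples 13 to 34 in red, open symbols where the probe was not detected, and bars for the mean and SD. Cd14, Tlr4 and Lbp lie high in both CD24+/CD29lo groups and at or near background in most CD24+/CD29+ samples, Ptx3 shows the opposite order, and Tlr2 and Lcn2 lie highest in GFP+ CD24+/CD29lo cells.

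The lipopolysaccharide receptor genes Cd14 and Tlr4 were largely a feature of the CD24+/CD29lo compartment. Cd14, the co-receptor that loads lipopolysaccharide onto MD-2, was detected in 0 of 9 GFP+ and in 3 of 6 GFP- samples of the CD24+/CD29+ compartment, and in all 9 GFP+ and all 10 GFP- samples of the CD24+/CD29lo compartment. Its lowest, median and highest levels were 4.43, 4.85 and 5.24 in GFP+ CD24+/CD29+ and 7.64, 8.40 and 8.89 in GFP+ CD24+/CD29lo cells. They were 4.80, 5.05 and 7.21 in GFP- CD24+/CD29+ and 6.48, 7.43 and 8.00 in GFP- CD24+/CD29lo cells. The GFP+ groups did not overlap, and the GFP- groups overlapped through 1 sample, sample 25. In GFP+ cells Cd14 was at least 9.13-fold lower in the CD24+/CD29+ compartment, a bound set by the lowest detected signals (limma, adjusted p = 7.7e-13). In GFP- cells its fitted level was 3.91-fold lower (difference -1.97, SE 0.26, adjusted p = 1.4e-06), no exact size with 3 of 6 CD24+/CD29+ samples detected. Without sample 25 the difference was -2.32. Its mean levels thus ran in the order GFP+ CD24+/CD29lo (8.32 ± 0.43, SD), GFP- CD24+/CD29lo (7.37 ± 0.50), GFP- CD24+/CD29+ (5.40 ± 0.91) and GFP+ CD24+/CD29+ (4.82 ± 0.22), of which the last pair did not differ beyond its spread.

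Tlr4, the signalling receptor for lipopolysaccharide, was also lower in CD24+/CD29+ cells, on all 3 of its probes. On its probe of highest mean (ILMN_2684234) the lowest, median and highest levels were 4.61, 5.06 and 6.39 in GFP+ CD24+/CD29+ and 8.53, 8.91 and 9.85 in GFP+ CD24+/CD29lo cells, and 4.62, 5.13 and 7.52 in GFP- CD24+/CD29+ and 7.94, 8.62 and 9.34 in GFP- CD24+/CD29lo cells. The CD24+/CD29+ samples all lay below the CD24+/CD29lo samples. This probe was detected in 5 of 9 GFP+ and 3 of 6 GFP- CD24+/CD29+ samples. Its fitted level was 13.5-fold lower in CD24+/CD29+ cells among GFP+ samples (difference -3.76, SE 0.29, adjusted p = 1.1e-11) and 8.98-fold lower among GFP- samples (-3.17, SE 0.32, adjusted p = 4.7e-09). These folds are no exact sizes, since some of the CD24+/CD29+ signals were not above background. The other Tlr4 probes were detected in 0 and 0 of 9 GFP+ CD24+/CD29+ samples and in 0 and 1 of 6 GFP- CD24+/CD29+ samples. They were at least 4.79-fold (ILMN_2690004) and at least 4.81-fold (ILMN_2752966) lower in CD24+/CD29+ cells among GFP+ samples. Among GFP- samples ILMN_2690004 was at least 2.28-fold lower and ILMN_2752966, with 1 detected sample in the CD24+/CD29+ group, was lower (adjusted p = 0.000757), with a mean of 4.68 in CD24+/CD29+ and 6.72 in CD24+/CD29lo cells and no exact fold, since most of its CD24+/CD29+ signals were not above background. The 3 probes gave the same direction between compartments, but within groups they did not vary together: after group means were removed, the correlation of ILMN_2684234 with the other probes over the 34 arrays was -0.13 and -0.09, against 0.98 for the 2 probes of Ptx3.

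In the GFP- CD24+/CD29+ group, sample 25 held the highest level of both Cd14 (7.21) and Tlr4 (7.52), while the other 5 samples reached 5.37 and 5.66. Its mean level of the 7 luminal markers was 8.99, against 7.46 to 8.15 in the other samples of that group, and the part of luminal cells in its values was not tested. Its macrophage and monocyte markers averaged 4.77, within the range of the group, and 2 of 9 were detected, against 1 to 2 over the group. That mean rests mostly on signals not above background, and the part of such cells was not tested.

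Lbp, the plasma protein that extracts lipopolysaccharide from bacterial membranes, followed the same order. Its lowest, median and highest levels were 4.57, 5.15 and 7.00 in GFP+ CD24+/CD29+ and 7.87, 9.08 and 9.98 in GFP+ CD24+/CD29lo cells. They were 4.79, 5.35 and 5.75 in GFP- CD24+/CD29+ and 5.85, 8.03 and 9.59 in GFP- CD24+/CD29lo cells. No CD24+/CD29+ sample reached a CD24+/CD29lo sample of the same GFP status. Lbp was detected in 5 of 9 GFP+ and 3 of 6 GFP- CD24+/CD29+ samples. Its fitted level was 12.7-fold lower in CD24+/CD29+ cells among GFP+ samples (difference -3.67, SE 0.41, adjusted p = 2.3e-08) and 5.68-fold lower among GFP- samples (-2.51, SE 0.44, adjusted p = 0.000117). These folds are no exact sizes, since some of the CD24+/CD29+ signals were not above background. Within samples 13 to 34, the set that holds all GFP- CD24+/CD29+ samples, the GFP- difference was -1.75 (SE 0.45, adjusted p = 0.023). In GFP- CD24+/CD29lo cells its level differed between the array sets, with a mean of 8.98 ± 0.44 (SD, n = 4) in samples 5 to 8 and 7.02 ± 1.03 (n = 6) in the samples of the second set.

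Ptx3, a pentraxin that binds microbes and damaged cells, was the only gene of the 7 with higher levels in the CD24+/CD29+ compartment that passed the test. On ILMN_2662802 the lowest, median and highest levels were 9.49, 10.48 and 10.98 in GFP+ CD24+/CD29+ and 8.00, 9.57 and 10.21 in GFP+ CD24+/CD29lo cells, and 9.90, 10.34 and 11.14 in GFP- CD24+/CD29+ and 6.41, 7.75 and 9.21 in GFP- CD24+/CD29lo cells. The GFP- groups did not overlap and the GFP+ groups did. It was 5.83-fold higher in CD24+/CD29+ cells among GFP- samples (difference 2.54, SE 0.38, adjusted p = 9.4e-06) and 2.09-fold higher among GFP+ samples (1.06, SE 0.35, adjusted p = 0.0466), and the second probe gave 2.47 and 1.07. Among GFP+ samples the call on ILMN_2662802 was lost without any 1 of 18 of the 34 samples, and that on ILMN_2662803 without sample 19 or sample 34. Neither probe passed within an array set, with differences of 0.72 and 0.81 in samples 1 to 12 and 1.32 and 1.24 in samples 13 to 34. Fibroblast markers were also higher in the CD24+/CD29+ compartment (3 of 7 called among GFP- samples and 2 of 7 among GFP+ samples): their summed level was 314 to 1329 in GFP+ CD24+/CD29+ and 194 to 555 in GFP+ CD24+/CD29lo samples, and 861 to 2427 in GFP- CD24+/CD29+ and 179 to 571 in GFP- CD24+/CD29lo samples. Adipocyte markers were called higher there too, 1 of 4 tested among GFP- samples and 2 of 4 among GFP+ samples. The part of either list in the Ptx3 difference was not tested.

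Lcn2, a siderophore-binding protein that withholds iron from bacteria, and Tlr2 were expressed in both compartments. Lcn2 was detected on all 34 arrays, with lowest, median and highest levels of 10.16, 10.58 and 11.45 in GFP+ CD24+/CD29+ and 9.82, 11.70 and 12.10 in GFP+ CD24+/CD29lo cells, and of 10.03, 10.57 and 10.73 in GFP- CD24+/CD29+ and 9.85, 10.96 and 11.24 in GFP- CD24+/CD29lo cells. It was 1.87-fold lower in CD24+/CD29+ cells among GFP+ samples (difference -0.90, SE 0.23, adjusted p = 0.00682), and the difference among GFP- samples was -0.32 (SE 0.25, adjusted p = 0.498). Within the array sets the GFP+ difference was -1.07 (limma, adjusted p = 0.00407) in samples 1 to 12 and -0.66 (adjusted p = 0.442) in samples 13 to 34. Tlr2 had lowest, median and highest levels of 5.09, 6.00 and 6.94 in GFP+ and 5.48, 6.09 and 6.85 in GFP- CD24+/CD29+ cells, which overlapped those of CD24+/CD29lo cells given below. Between compartments it differed by -0.73 (SE 0.25, adjusted p = 0.0658) among GFP+ samples and by 0.30 (SE 0.28, adjusted p = 0.590) among GFP- samples. The first of these passed the test without sample 3, 12 or 15.

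Ly96, which encodes MD-2, varied widely between samples of the same group. Its lowest, median and highest levels were 4.51, 6.75 and 7.50 in GFP+ CD24+/CD29+, 4.60, 6.93 and 10.00 in GFP- CD24+/CD29+, 4.48, 6.13 and 8.23 in GFP+ CD24+/CD29lo and 4.53, 6.85 and 10.04 in GFP- CD24+/CD29lo cells. Each group held at least 1 sample in which it was not detected beside samples at much higher levels, and all 4 groups overlapped. It passed the test in none of the 5 comparisons made, and its 95% interval for GFP+ minus GFP- CD24+/CD29lo cells, -2.12 to 0.47, leaves room for sizeable differences.

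Counted by probe, 8 of the 10 were called between compartments among GFP+ samples (adjusted p under 0.05), 6 lower and 2 higher in CD24+/CD29+ cells, where 10.4% of the 35870 probes tested were called, 4.86% lower and 5.53% higher. Among GFP- samples 7 of 10 were called, 5 lower and 2 higher, where 10.3% were, 5.04% lower and 5.29% higher. The groups did not overlap for 5 of the 10 probes in each comparison, against 2.77% of probes tested among GFP+ samples and 3.21% among GFP- samples. These comparisons share no sample, but they come from the same fit and share its estimate of the spread. Several of the probes report the same gene, so that the called probes stand for 5 genes among GFP+ and 4 genes among GFP- samples. Tlr4 probe ILMN_2690004, called in both comparisons, was kept for testing only through the CD24+/CD29lo groups, where it is high. Its calls, and its lack of overlap among GFP+ samples, are therefore no separate support. The 7 genes were chosen with earlier results of these data known, so that these counts are a description.

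**Figure D2:**
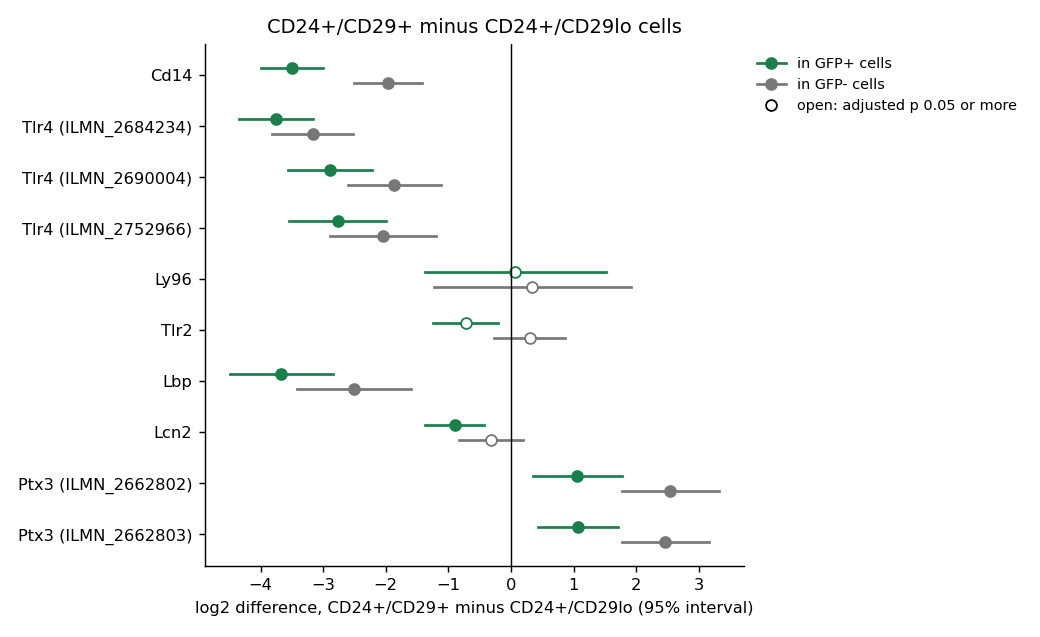
Log2 difference between CD24+/CD29+ and CD24+/CD29lo cells for each of the 10 probes, with 95% intervals, among GFP+ samples (green) and GFP- samples (grey), filled where the adjusted p was under 0.05. Cd14, the Tlr4 probes and Lbp lie left of 0 in both, from -1.86 to -3.76, the Ptx3 probes lie right of 0 in both, and Ly96 has the widest intervals. Points are fitted values, so those of probes not detected in some or all samples of a group (such as Cd14, Tlr4 and Lbp probes in CD24+/CD29+ cells) are no exact sizes.

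Whether GFP status went with a different level of these genes was asked within each compartment, on the arrays of that compartment normalized together. In CD24+/CD29lo cells Cd14 and Tlr2 were both higher in GFP+ cells. Cd14 was 1.90-fold higher (difference 0.93, SE 0.21, adjusted p = 0.0286), and 7 of 9 GFP+ samples lay above all 10 GFP- samples. Tlr2, the receptor for bacterial lipoproteins, had lowest, median and highest levels of 5.52, 6.93 and 7.50 in GFP+ and 5.25, 5.90 and 6.53 in GFP- CD24+/CD29lo cells, and 7 of 9 GFP+ samples again lay above all 10 GFP- samples. It was 1.97-fold higher (difference 0.98, SE 0.22, adjusted p = 0.0371). These 2 of 10 probes compare with 1.03% of the 31919 probes tested, or 0.229% called in the positive direction. Both calls stood close to the threshold: leaving out 1 sample at a time gave differences of 0.83 to 1.01 for Cd14 and 0.89 to 1.14 for Tlr2, and the adjusted p reached 0.0642 and 0.081, with the Cd14 call lost without any 1 of 7 samples (2, 5, 10, 12, 16, 23 and 34) and the Tlr2 call without any 1 of 12 (2, 6, 7, 8, 10, 14, 16, 18, 19, 23, 26 and 34). Within the array sets Cd14 differed by 0.76 and 1.03 and Tlr2 by 0.81 and 1.14 (samples 1 to 12 and 13 to 34), and neither passed the test in a single set.

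The other genes pointed the same way without passing the test, except Ly96. Ptx3 had differences of 1.38 (SE 0.39, adjusted p = 0.124) and 1.32 (SE 0.34, adjusted p = 0.0794) on its probes, and 6 of 9 GFP+ samples lay above all 10 GFP- samples. The second probe passed the test when the fit included the array set (1.29, SE 0.32, adjusted p = 0.0462), and also without sample 5, 19 or 34. Lbp differed by 1.14 (SE 0.45, adjusted p = 0.357), the Tlr4 probes by 0.37, 0.97 and 0.66, and Ly96 by -0.82 (SE 0.62, adjusted p = 0.724). The 0.97, on ILMN_2690004, fell as low as 0.69 with 1 sample left out. On that probe sample 22 was the highest GFP+ sample, at 9.74 with the next at 8.03 (all arrays normalized together). It was the lowest of its group on both other Tlr4 probes. The Lbp difference was 0.29 in samples 1 to 12 and 1.81 in samples 13 to 34, and whether the sets differ was not tested. In all, 7 of 10 probes had an unadjusted p under 0.05, against 9.86% of all probes tested, 9 of 10 had a difference above 0, against 51.9%, and their median was 0.95 against 0.01. Several of these probes report the same gene, so that the counts are not of separate results. The genes were also chosen with earlier results of these data known. These counts, and that of the called probes above, are therefore a description and no support for a shared rise. The groups overlapped for every one of the 10 probes, and did not for 0.276% of all probes tested.

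For Lcn2 the call turned on a single array. Its difference was 0.71 (SE 0.26, adjusted p = 0.298): 8 of 9 GFP+ samples lay above all 10 GFP- samples, and sample 22 lay below all of them. Without sample 22 the difference was 0.92 with an adjusted p of 0.0158. Sample 22 also had the highest mean level of the 8 basal and myoepithelial markers among the CD24+/CD29lo samples, 8.79, and the lowest of the 7 luminal markers, 9.85.

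In the same compartment all 8 basal and myoepithelial markers had positive differences between GFP+ and GFP- CD24+/CD29lo cells, with a median of 0.56 and 0 of 8 past the test in limma (3 at an unadjusted p under 0.05). Their summed level was 373 to 5817 in GFP+ and 575 to 2483 in GFP- samples, and 4 to 8 and 5 to 7 of them were detected. Ptx3 was itself higher in the basal compartment and Cd14 and Lbp were lower in it, and the part of basal cells in these differences was not tested. Of the 7 luminal markers 1 was lower in GFP+ cells, the estrogen receptor gene Esr1 (-2.74, SE 0.43, adjusted p = 0.00154). The macrophage and monocyte markers had a median difference of -0.04 over the 4 tested and those of neutrophils one of -0.03 over the 5 tested. Of the adipocyte markers 1 of 4 tested was lower in GFP+ cells, Fabp4 (-2.13, SE 0.42, adjusted p = 0.0129).

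In CD24+/CD29+ cells no probe of the 7 genes was called between GFP+ and GFP- samples, with 0 of 9 tested by limma, 0 at an unadjusted p under 0.05 (8.76% of all probes) and 0 by the unpaired test that the methods name, where 0.0305% of 32737 probes were called by limma. Cd14, detected in 0 of 9 GFP+ and 3 of 6 GFP- samples, did not pass (limma, adjusted p = 0.601). Its GFP- mean of 5.37, against a mean lowest detected signal of 5.08, gave a bound of 1.22-fold lower in GFP+ cells. That bound rests on sample 25, and no lower limit is drawn from it. With the arrays of all groups normalized together, the GFP- mean was 5.40 with sample 25 and 5.04 without it. The fitted Cd14 difference, -0.56, and that without sample 25, -0.20, rest in part on signals below the detection limit. Tlr2 differed by -0.03 (95% interval -0.69 to 0.63), Lcn2 by 0.14 (-0.25 to 0.53) and Ptx3 by -0.09 (-0.65 to 0.48). The probe ILMN_2690004 of Tlr4 did not pass the filter on dim probes in either group and was not tested. It was detected in neither group.

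The difference between these differences was tested over the 34 arrays. No probe of the 7 genes was called (0 of 10 by limma, against 0.27% of 35870 probes), although 5 of 10 had an unadjusted p under 0.05, against 8.26% of all probes, and all 10 lay above 0, against 52.6% of all probes. Here too several probes report the same gene, and the genes were chosen with earlier results of these data known. On CD24+/CD29+ arrays Tlr4 probe ILMN_2690004, 1 of those 5, was detected in 0 of 9 GFP+ and 0 of 6 GFP- samples. ILMN_2752966 was detected there in 0 of 9 and 1 of 6. The values of these probes rest on their CD24+/CD29lo differences, and the counts show no GFP difference particular to a compartment. Cd14 came nearest, with a fitted value of 1.53 (SE 0.36, adjusted p = 0.0559) that is no exact size, since the probe was not detected on any of the 9 GFP+ CD24+/CD29+ arrays. Its adjusted p was 0.0384 when the fit included the array set and 0.00572 on the authors' processed values, but 0.0702 with no filter on dim probes and 0.564 in samples 13 to 34. Without sample 25 it was 1.17 and again did not pass, and without sample 7, 19, 22, 26, 30 or 33 it passed. Tlr2 had 1.02 (SE 0.38, adjusted p = 0.421). A GFP difference in Tlr2 that is particular to CD24+/CD29lo cells was therefore not shown.

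**Figure D3:**
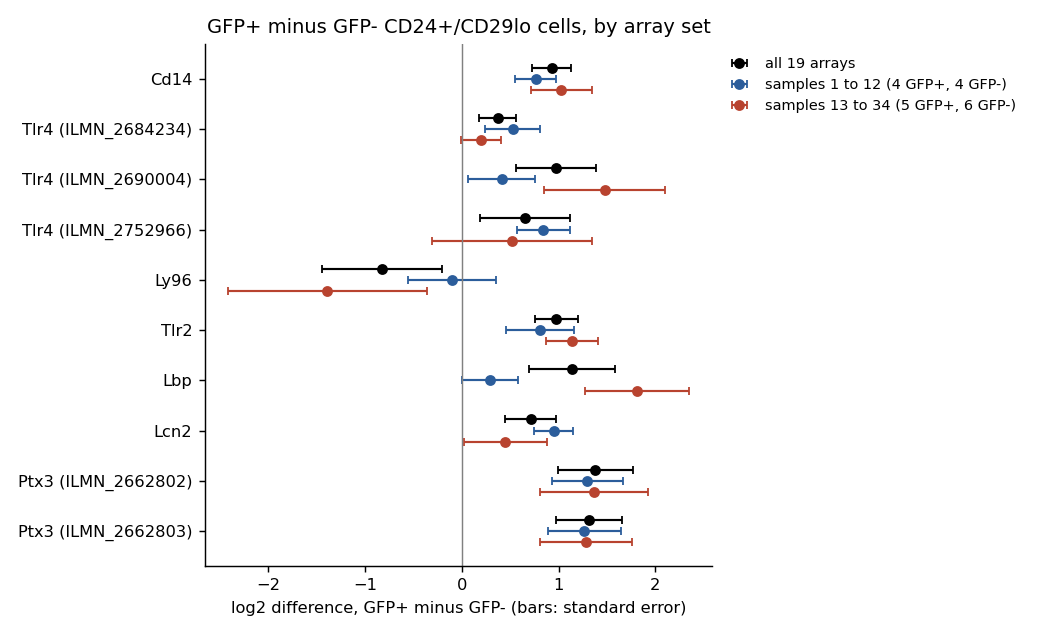
Log2 difference between GFP+ and GFP- CD24+/CD29lo cells for each of the 10 probes over all 19 arrays (black), in samples 1 to 12 (blue) and in samples 13 to 34 (red), with standard errors. Cd14, Tlr2, Lcn2 and Ptx3 lie right of 0 in each set, and Lbp is at 0.29 in the first set and 1.81 in the second.

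The rest of the pathway was read from lists of genes. Of 12 other Toll-like receptor genes and partners, between 0 and 3 were detected on any array, 7 were tested between GFP+ and GFP- CD24+/CD29lo cells and 0 were called. Of 17 adaptors, kinases and regulators, 16 had a probe, 15 were tested in that comparison and 0 were called. At an unadjusted p under 0.05 there were 0 and 2. Tlr3, a receptor for double-stranded RNA, differed by -0.26 (SE 0.17, adjusted p = 0.689), and Irak1, a kinase that acts below MyD88, by -0.23 (SE 0.30, adjusted p = 0.864). The median differences of these lists were -0.01 and -0.13, against 0.01 over all probes tested. In CD24+/CD29+ cells 0 of 8 and 0 of 14 tested were called between GFP+ and GFP- samples (0 and 1 at an unadjusted p under 0.05). Among GFP+ samples Irak2, another of these kinases, was lower (-3.20, adjusted p = 4.3e-07), the ubiquitin ligase Traf6 was lower (-1.56, adjusted p = 0.0401) and Myd88 was higher (1.48, adjusted p = 0.0377) in CD24+/CD29+ than in CD24+/CD29lo cells. Among GFP- samples Irak2 (-2.84, adjusted p = 2.2e-05) and Irak1 (-1.31, adjusted p = 0.0172) were lower.

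Other secreted defence proteins did not share a direction between GFP+ and GFP- CD24+/CD29lo cells. Of 21 listed, 19 had a probe and 17 were tested: 1 was higher and 2 were lower. Ltf, the iron-binding lactoferrin, was higher in GFP+ cells (0.87, SE 0.20, adjusted p = 0.0343), whereas the protease inhibitor Slpi (-1.70, SE 0.28, adjusted p = 0.00282) and Wfdc2 (-1.89, SE 0.36, adjusted p = 0.00938) were lower. Slpi also differed between compartments in its GFP difference (-1.81, SE 0.36, adjusted p = 0.0151). In CD24+/CD29+ cells 0 of 13 were called between GFP+ and GFP- samples (1 at an unadjusted p under 0.05). Between CD24+/CD29+ and CD24+/CD29lo cells 5 of 18 tested were lower and 1 higher among GFP+ samples, and 7 were lower and 1 higher among GFP- samples. Ltf (-6.01 and -4.06) and the hemoglobin-binding Hp (-2.70 and -2.75) were among the lower genes and Slpi (2.66 and 0.85) was the higher one, each value given for GFP+ and then for GFP- samples.

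**Figure D4:**
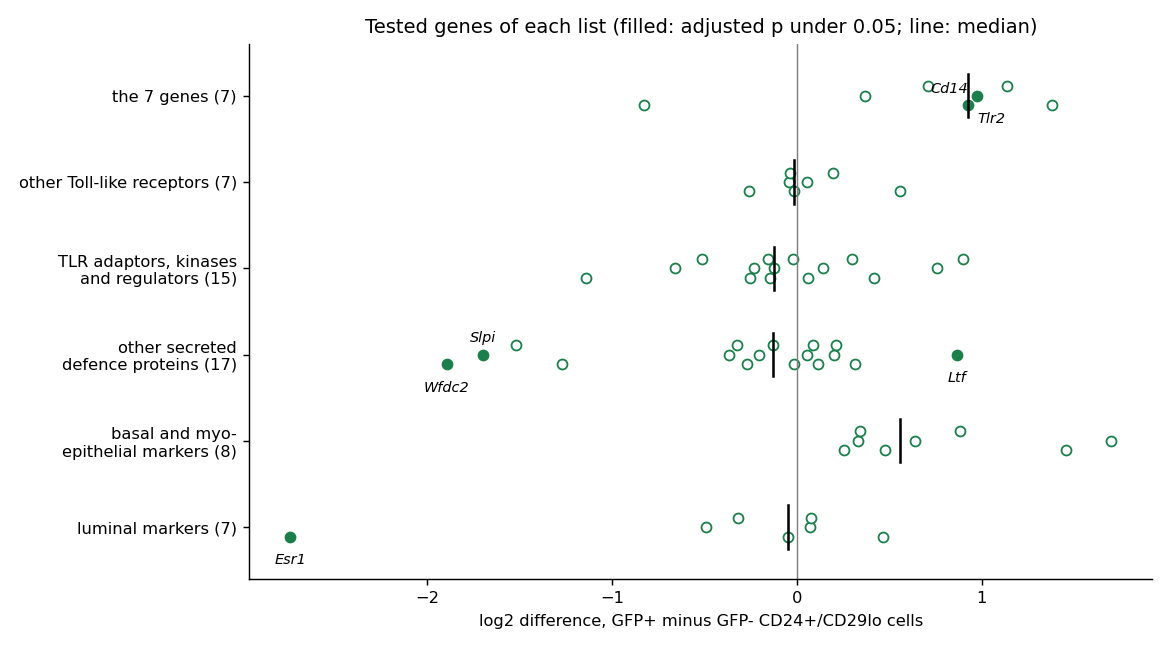
Log2 difference between GFP+ and GFP- CD24+/CD29lo cells for the 7 genes and for the tested genes of 5 lists, filled where the adjusted p was under 0.05, with a line at each median. The 7 genes have a median of 0.93 over their probes of highest mean, the other Toll-like receptors and the adaptors lie around 0, and the called secreted proteins fall on both sides.

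The genes whose levels ran most like each of the 7 over the 34 arrays were ranked by Pearson correlation among 13914 candidate probes, and since all points share the compartment difference the values are given as a description. Cd14 was closest to Mybbp1a (r = 0.949), Ncald (0.940) and Ceacam1 (0.940), and Tlr4 to Mybbp1a (0.952) and the tight junction genes Cldn3 (0.946) and Cldn7 (0.941). Lbp was closest to Bglap (0.920) and Rab25 (0.903), and Ptx3 to Adamts1 (0.846), Crispld2 (0.842) and Myl9 (0.839), a myosin light chain of contractile cells. Correlations were lower for Lcn2 (Cxcl16, 0.728), Ly96 (Spata6, 0.654) and Tlr2 (Cxcl16 on another of its probes, 0.590). Among the 7 genes themselves, Cd14 and Tlr4 on ILMN_2684234 correlated at 0.93 over the 34 arrays and at 0.51 after group means were removed. Sample 25, which stood apart from its group on both, was included, and its part was not tested. With the other Tlr4 probes the values after removal were -0.24 (ILMN_2690004) and 0.09 (ILMN_2752966). Cd14 and Tlr2 correlated at 0.26 over the 34 arrays and at -0.06 after removal.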

How the data were processed

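RNA of sorted cells was amplified and hybridised to 34 arrays, 1 per sample. The authors deposited scanner signal intensity per probe, with a detection value deposited as a fraction (1 minus the detection p), and processed log2 values that the authors quantile-normalized and corrected for batch. The submitters' processing notes name R 2.14.1.

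Here the intensities were background-corrected and quantile-normalized with neqc (offset 16) in limma 3.58.1 (R 4.3.3) and tested on the log2 scale by lmFit and eBayes with Benjamini-Hochberg adjustment over all probes tested, threshold 0.05. GFP+ minus GFP- was fitted on the arrays of 1 compartment, and the compartment comparisons and the difference between GFP differences on all 34. A probe was tested if above the 20th percentile on 80% of the arrays of at least 1 group. It was called detected on an array at a detection p under 0.05, which was not required for testing. Of 45281 probes, 34885 had 1 symbol, 18 several and 10378 none in the probe-to-gene table, and 0 symbols were updated. Where a group had no detected array, folds are bounds against the lowest detected signal of each array. The scripts were tested on simulated data, and the number of arrays limits the precision.

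The 7 genes and the lists were chosen with earlier results of these data known. The genes named are every probe of the 7 genes, from each list up to 4 called genes of largest change per comparison (or the 2 of highest mean where none was called), and the 3 genes most correlated with each of the 7. Alternative settings tried were leaving out the background correction, starting from the processed values, a detection filter or none, the array set as a term, each set alone, all arrays together, the methods' t-test and leaving out each sample. Which set matches which collection date is not given in the sources used here.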

Additional observations from a re-analysis of the deposited data

Results flagged for a closer look

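In 6 of 40 groups of samples examined, 1 sample stood apart from the rest of its group by Dixon's criterion at 95%, which chance meets in about 1 in 20 groups. In GFP- CD24+/CD29+ cells sample 25 had a Cd14 level of 7.21 (nearest 5.37) and a Tlr4 level of 7.52 on ILMN_2684234 (nearest 5.66), and sample 21 had 5.14 on the Tlr4 probe ILMN_2752966 (nearest 4.65). In GFP+ CD24+/CD29+ cells sample 28 had an Lbp level of 7.00 (nearest 5.66). In GFP+ CD24+/CD29lo cells sample 12 had a Tlr2 level of 5.52 (nearest 6.50), and sample 22 had an Lcn2 level of 9.82 (nearest 11.44).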

How the results depend on the processing

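Between compartments among GFP- samples 7 of the 10 probes were called under each alternative run and with any sample left out. Among GFP+ samples the count of 8 was 5 in samples 13 to 34 alone, 7 to 9 under the alternatives on both sets and 6 to 9 with 1 sample left out. Neither Ptx3 probe passed in samples 1 to 12 alone, and neither Ptx3 nor Lcn2 passed in samples 13 to 34 alone. Among GFP+ samples the Ptx3 call on ILMN_2662802 was lost without any of samples 1, 3, 4, 6, 9, 12, 13, 16, 17, 19, 21, 24, 25, 26, 28, 29, 33 and 34. For GFP+ minus GFP- CD24+/CD29lo cells the count of 2 was 4 on the authors' processed values, 4 with all 34 arrays together and 4 by the methods' t-test, which add both Ptx3 probes, 3 with the set as a term and 3 with the detection filter, which add Ptx3 ILMN_2662803, 2 with no background correction, 1 with no filter, 0 in samples 13 to 34, 0 in samples 1 to 12 and 0 to 3 with 1 sample left out. It was 0 without any of samples 2, 10, 16 and 23, and 3 without sample 22. Over all probes 329 were called in that comparison, against 676 by the t-test, 564 on the processed values, 526 with the set as a term and 70 in samples 13 to 34. For the difference between GFP differences the count of 0 was 1 (Cd14) with no background correction, 1 on the processed values, 1 with the detection filter, 1 with the set as a term and 0 to 1 with 1 sample left out. In CD24+/CD29+ cells it was 0 throughout.

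Values that changed sign had not passed the test. For GFP+ minus GFP- CD24+/CD29+ cells these were Tlr2 (0.0058 on the processed values, -0.16 to 0.12 with 1 sample left out), Lbp (-0.22 on the processed values, -0.0022 with all arrays together, -0.20 to 0.10), Tlr4 on ILMN_2752966 (0.016 with the set as a term, 0.0062 in samples 13 to 34, 0.0054 on set-adjusted values, -0.10 to 0.033) and on ILMN_2684234 (-0.39 to 0.19), and Ptx3 (-0.18 to 0.066 and -0.17 to 0.091). Ly96 was -0.016 in samples 13 to 34 between compartments among GFP+ samples, and with 1 sample left out it ran over -0.14 to 0.32 there, -0.19 to 0.89 among GFP- samples and -0.26 to 0.82 for the difference between GFP differences. The causes were not tested. No paired analysis was possible because the labels do not say which samples came from the same animals.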
